A study of Homo sapiens with 2 samples.

Results

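Mostly methylated open sites were defined as autosomal peaks of open chromatin in which over 70% of CpG reads were methylated in both replicates, with at least 10 CpG reads in each. They numbered 537, or 1.32% of the 40703 peaks with enough reads (called tested peaks here) and a small part of the 46884 autosomal peaks listed. The cells were H9, an established human embryonic stem cell line labelled as pluripotent, grown in mTeSR medium on Matrigel with no treatment named, in 1 group of 2 replicates. ATAC-Me was used, in which a transposase cuts open chromatin into sequencing fragments and unmethylated cytosines are then converted, so that the position of a fragment reports accessibility and its sequence reports methylation. Whether each replicate was its own culture is not in the labels, and the spread given here may therefore be only technical.

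In most mammalian cells CpG methylation covers the bulk of the genome and is low where chromatin is open. Transcription factors and the CpG-binding proteins of promoters keep such sites free of DNA methyltransferases, and TET enzymes oxidise methyl groups at active enhancers. Open sites that stay methylated are known for some factors that tolerate or prefer methylated DNA, and for promoters of germ cell genes, which are methylated in most other cells.

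The autosomal CpG tables held 28475863 and 51406146 reads in replicates 1 and 2 and covered 31.6% and 59.0% of the listed CpGs. A peak lay within 1000 bp of an end of 8 of 10 marker genes of pluripotent cells, SOX2, LIN28A and DNMT3B among them, but not of POU5F1 and ZIC2. The same held for 4 of 13 marker genes of other cell types (APOB, COL1A1, COL1A2 and MYOD1). The share over all genes was not computed, so these counts have no background. The peak list is 1 list for both replicates, so signal, width, CpG density and gene position have no replicate error. Where values of the replicates are compared, the smallest two-sided p of an exact sign-flip permutation test on 2 values is 0.5, and no p is given.

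The DNA before a few gene starts that these peaks overlap is shown first. The stretches and the peaks do not coincide. Some printed CpGs lie outside the peak, and some CpGs of the peak are not printed. The 6 gene starts below are those whose RefSeq promoter window (GRCh38.p14) shares at least 4 CpGs with a mostly methylated peak that has at least 30 reads in each replicate. Each line gives the 250 bases before the start, 5′ to 3′ on the strand of the gene, with every CpG in capitals.
PRSS50 (chr3:46717870-46718119, - strand): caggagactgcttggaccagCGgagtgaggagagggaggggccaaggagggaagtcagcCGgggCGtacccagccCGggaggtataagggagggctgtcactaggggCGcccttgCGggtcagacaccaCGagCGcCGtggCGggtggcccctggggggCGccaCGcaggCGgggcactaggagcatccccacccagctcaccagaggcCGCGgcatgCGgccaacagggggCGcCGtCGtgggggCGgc
ADAD2 (chr16:84190907-84191156, + strand): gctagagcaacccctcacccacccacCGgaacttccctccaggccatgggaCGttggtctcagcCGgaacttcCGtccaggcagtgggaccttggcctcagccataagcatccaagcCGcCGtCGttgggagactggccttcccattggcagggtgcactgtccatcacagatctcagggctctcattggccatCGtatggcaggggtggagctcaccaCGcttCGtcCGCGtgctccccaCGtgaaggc
C5orf58 (chr5:170232735-170232984, + strand): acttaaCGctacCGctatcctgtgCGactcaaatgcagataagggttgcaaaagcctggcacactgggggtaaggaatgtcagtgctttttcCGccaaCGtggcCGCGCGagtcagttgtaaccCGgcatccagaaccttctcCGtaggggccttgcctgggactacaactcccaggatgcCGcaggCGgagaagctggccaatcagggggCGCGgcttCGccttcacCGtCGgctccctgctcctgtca
LINC02139 (chr16:85136900-85137149, + strand): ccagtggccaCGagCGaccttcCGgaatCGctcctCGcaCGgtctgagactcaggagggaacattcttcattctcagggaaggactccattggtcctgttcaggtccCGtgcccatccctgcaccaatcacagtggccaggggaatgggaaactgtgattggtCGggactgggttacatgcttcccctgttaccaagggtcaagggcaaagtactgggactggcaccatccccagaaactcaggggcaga
LOC105372699 (chr20:60750206-60750455, + strand): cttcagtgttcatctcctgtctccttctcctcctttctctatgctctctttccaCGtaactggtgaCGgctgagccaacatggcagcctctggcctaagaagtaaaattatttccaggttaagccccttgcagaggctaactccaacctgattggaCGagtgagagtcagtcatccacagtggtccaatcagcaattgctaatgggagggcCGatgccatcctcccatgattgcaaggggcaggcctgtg
ACE (chr17:63484596-63484845, + strand): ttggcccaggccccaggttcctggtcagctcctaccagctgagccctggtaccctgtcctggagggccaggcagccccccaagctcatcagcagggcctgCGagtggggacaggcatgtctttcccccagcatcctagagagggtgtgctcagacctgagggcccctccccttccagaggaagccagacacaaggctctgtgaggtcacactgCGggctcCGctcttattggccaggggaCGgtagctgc
The stretch before PRSS50 holds 20 CpGs and that before C5orf58 17, while those before LOC105372699 and ACE hold 4 each. These 6 windows thus run from CpG-rich to CpG-poor.

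PRSS50, a serine protease gene of the testis, had the strongest of the mostly methylated peaks at a protein-coding start with at least 50 reads in each replicate. The peak on chromosome 3 (46717877 to 46718146, its summit 154 bp before the start) held 21 CpGs and 188 and 336 CpG reads, of which 78.2% and 76.8% were methylated. Of its CpGs with at least 5 reads, all 13 in replicate 1 and 20 of 21 in replicate 2 were at or above 50%, with medians of 76.5% and 78.6%. The methylated reads were thus not set by 1 CpG. The other CpGs of the peak had fewer than 5 reads in replicate 1, and neighbouring CpGs can share reads. At 500 to 2000 bp beyond the peak 83.3% and 85.5% of the 24 and 76 reads were methylated.

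ADAD2, a gene of an RNA-binding protein of male germ cells, showed the same picture at lower depth. Its peak on chromosome 16 (84190950 to 84191200, summit 71 bp from the start) had 18 CpGs, 158 and 123 reads, and 75.3% and 78.0% methylation. Single CpGs ran from 33.3% to 100% in replicate 1 and from 28.6% to 100% in replicate 2, on at most 12 reads per CpG. C5orf58, an open reading frame without a well-known role, read 83.7% and 86.0% on 86 reads in each replicate, its summit 26 bp from the start. LINC02139, a long non-coding RNA gene, read 96.2% and 84.0% on 53 and 75 reads. The start of LOC105372699, another non-coding gene, read 71.1% and 80.5% on 45 and 41 reads. These counts add reads over CpGs. No single CpG had more than 12 and 11 reads in C5orf58, 10 and 19 in LINC02139, or 10 and 11 in LOC105372699.

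ACE, the gene of angiotensin-converting enzyme, read 89.7% and 76.9% in a peak whose summit lay 5 bp from the start (chromosome 17, 63484703 to 63484931, 5 CpGs, 39 and 65 reads). The 2 CpGs of the peak farthest before the start, 37 and 30 bp away, read 100% on 11 and 10 reads in replicate 1, and 93.8% and 84.2% on 16 and 19 reads in replicate 2. The flanks of ACE read 100% and 82.7%. In these 6 peaks no CpG with at least 5 reads was below 28.6% in either replicate.

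**Figure D1:**
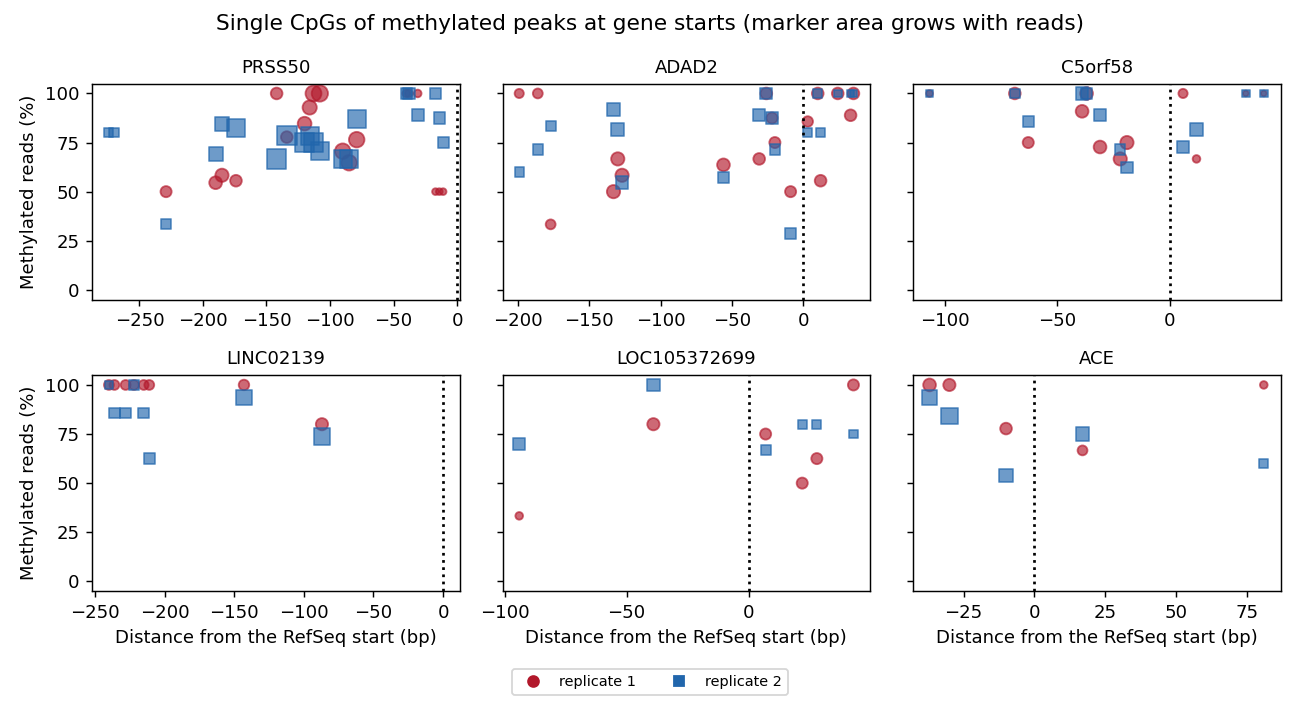
Methylation of single CpGs (percent of reads, y axis) against distance from the RefSeq start (bp, x axis) in the 6 mostly methylated peaks at gene starts; circles are replicate 1, squares replicate 2, marker area grows with the reads, and the dotted line is the start. In each gene most CpGs lie at or above 50% in both replicates.

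Such starts were the exception among mostly methylated peaks. On the 21 autosomes with RefSeq starts, 9 of 519 mostly methylated peaks (1.73%) had the summit within 1000 bp of the start of a protein-coding gene, against 27.6% of all tested peaks there. Peaks with 40% to 60% methylation in both replicates were close to them, at 2.20%, while peaks under 20% in both were at 38.1%. Starts were listed for 15101 of 19126 autosomal protein-coding genes, so these counts can miss starts in both sets alike. Beside PRSS50, ADAD2, C5orf58 and ACE, the 9 starts were those of HYAL1, a hyaluronidase (75% in each replicate), CDYL, a chromodomain protein (90.0% and 92.3%), RIPOR2 (80.0% and 81.8%), IGF1, the insulin-like growth factor (81.8% and 90.0%), and NR2E3, a nuclear receptor of photoreceptors (90.0% and 74.1%). CDYL and NR2E3 had only 10 reads in replicate 1, and the IGF1 peak held 1 CpG with 11 and 10 reads. Counting starts of non-coding genes too, 21 of the 519 lay within 1000 bp of a start (4.05%), against 30.8% of all tested peaks and 3.97% of peaks at 40% to 60%.

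For protein-coding genes without a listed RefSeq start, either end was used. LGALS1, the gene of galectin-1, had such an end 111 bp from a peak on chromosome 22 (37675400 to 37675668, 12 CpGs) with 79.5% and 74.0% methylation on 122 and 127 reads. Its flanks were lower than the peak, at 46.3% and 62.0%. RAC3, a small GTPase gene, had an end 647 bp from a peak with 71.7% and 88.5% on 53 and 130 reads, replicates that differed by more than those of LGALS1.

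Most mostly methylated sites were distal, meaning that no end of a protein-coding gene lay within 1000 bp of the summit. Distal sites made up 507 of 537, or 94.4% (95% Wilson interval 92.1% to 96.1%), against 70.2% of all tested peaks. The interval takes sites as independent, though some lie in the clusters described below. Peaks with 40% to 60% methylation in both replicates, of which there were 1496, were distal in 95.8%, a share close to that of the mostly methylated sites. Protein-coding gene bodies held 229 of the 537 summits (42.6%), against 45.8% of all tested peaks. No annotated gene of any kind held 240 of them (44.7%), against 42.0%. The larger gap was in remoteness: 139 sites (25.9%) lay over 100000 bp from any protein-coding gene, against 9.80% of all tested peaks and 18.0% of peaks at 40% to 60%. The median distance to the nearest end of a coding gene was 49925 bp, against 31298 bp in peaks at 40% to 60% and 3211 bp in peaks under 20%.

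Few of these sites lay near genes of the 7 groups examined. Zinc finger genes lay within 10000 bp of 4 sites (0.745%, against 2.01% of all tested peaks), through ZNF362, ZNF385D, ZNF609 and the neighbours ZNF580 and ZNF581. Potassium channel genes lay near 2 (KCNQ5 and KCNS3, 0.372% against 0.639%) and collagen genes near 3 (COL25A1 and COL4A1, 0.559% against 0.307%). Imprinted genes lay near 1 (ZDBF2, 0.186% against 0.111%) and germline genes near 1 (0.186% against 0.0835%). Clustered protocadherin and olfactory receptor genes lay near none, with only 16 and 36 tested peaks near them at all. Counts this small allow no reading beyond the values.

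Mostly methylated sites were weak, narrow and CpG-poor peaks. The median signal, a value of the peak caller, was 330 (quartiles 255 and 451), against 607 in the other tested peaks and 404 in peaks at 40% to 60%. The median width was 227 bp (196 to 284), against 320 and 247 bp. CpG density had a median of 1.52 CpGs per 100 bp (1.01 to 2.29), against 3.19 and 1.69, and a median site held 3 CpGs, against 9 in other tested peaks. In each of the 3 measures the order was therefore the same, with mostly methylated sites lowest, peaks at 40% to 60% close above them, and the rest well above.

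By signal, 3.32% of tested peaks in decile 1 (the weakest) were mostly methylated, falling in every step to 0.123% in decile 9, with 0.147% in decile 10. By width the share went from 3.44% in decile 1 to 0.197% in decile 10. By CpG density it was level, between 2.21% and 2.92%, over the lowest 4 deciles, and 0.0737% in decile 8. No mostly methylated site lay in deciles 9 and 10, which hold 4070 peaks each, with at least 8.72 CpGs per 100 bp. The densest site was the PRSS50 peak, at 7.78 CpGs per 100 bp.

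**Figure D2:**
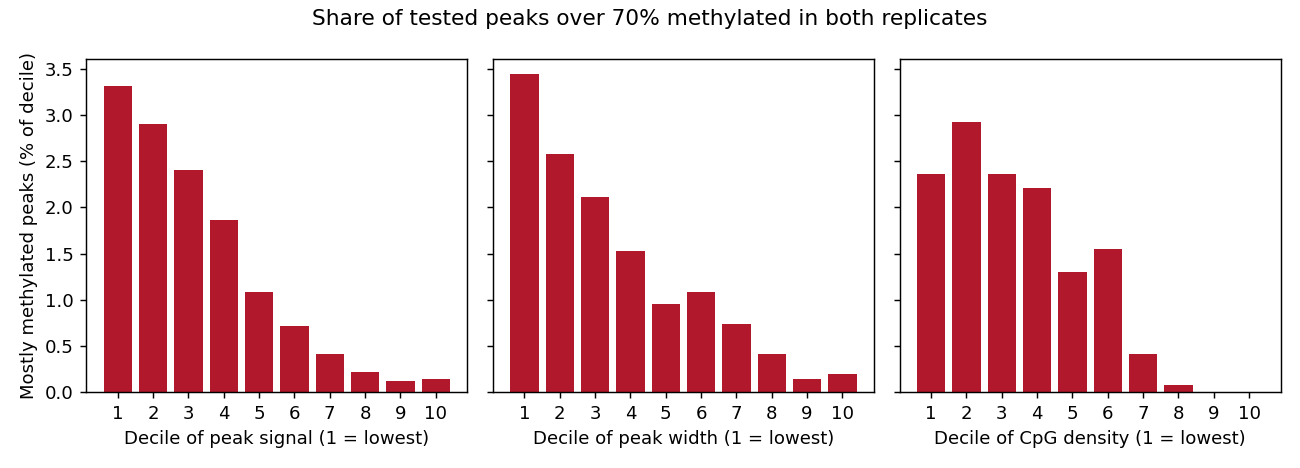
Share of tested peaks that were mostly methylated (percent, y axis) by decile of peak signal, width and CpG density (x axes, 1 = lowest). The share goes from 3.32% in the weakest to 0.147% in the strongest decile and is 0 in the CpG-densest 2 deciles.

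Few reads stood behind most of these sites. The median was 27 and 28 CpG reads per site in the replicates, against 107 and 128 in other tested peaks. By the lower of the 2 read counts, 4.72% of peaks with 10 to 19 reads were mostly methylated, 2.13% with 20 to 49, 1.07% with 50 to 99, 0.341% with 100 to 199 and 0.0616% with 200 or more. A value of 8 methylated reads in 10 has a 95% Wilson interval of 49% to 94.3%, which covers counting error only and is too narrow where CpGs share reads. The lower bound was above 50% in both replicates for 458 of 537 sites and above 70% for 65. With at least 50 reads in each replicate 96 sites were left, with a median signal of 436, a width of 282 bp and 3.47 CpGs per 100 bp. Other tested peaks of that depth had medians of 852, 412 bp and 6.57, so mostly methylated sites were again below the other tested peaks. Signal, width and CpG density of peaks at 40% to 60% were not compared at that depth.

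Methylation in these peaks was the value they were chosen by, and is given as a description. Its median over sites was 81.4% in replicate 1 and 80.8% in replicate 2, and pooled over their reads it was 80.8% and 81.2%. Single CpGs inside, where at least 10 reads covered them, were over 80% methylated in 53.3% and 54.7% of cases and under 20% in 0.229% and 0.712%. Just inside the limit, among sites with at least 50 reads, were peaks within ENKD1 (70.1% and 72.2%), FOXN3, a forkhead factor gene (70.1% and 81.3%), and BBS9, a gene of the primary cilium (78.5% and 70.2%). Just outside were peaks near MEDAG (75.5% and 69.8%), ZPLD1 (69.6% and 70.8%) and PCMTD2 (69.6% and 76.1%). The Wilson interval of ENKD1 in replicate 1, 59.8% to 78.7%, spans the replicate 1 values of all 6.

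A choice made in 1 replicate and read in the other does not favour the second reading. Of 1018 tested peaks over 70% in replicate 1, 537 were over 70% in replicate 2 (52.8%), with a median of 71.4% there against 78.6% in the replicate of the choice. Of 986 over 70% in replicate 2, the same 537 were over 70% in replicate 1 (54.5%), with a median of 72.2% against 78.7%. All tested peaks passed 70% in 2.42% and 2.50% of cases in the replicate read. The second reading was thus lower than the first, and mostly high: 90.4% and 87.4% of the chosen peaks were above 50% in it, and 0.0982% and 0.507% were under 20%. With at least 50 reads in each replicate 58.5% of 164 and 70.6% of 136 peaks were over 70% again, and with at least 100 reads 66.7% of 39 and 78.8% of 33.

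**Figure D3:**
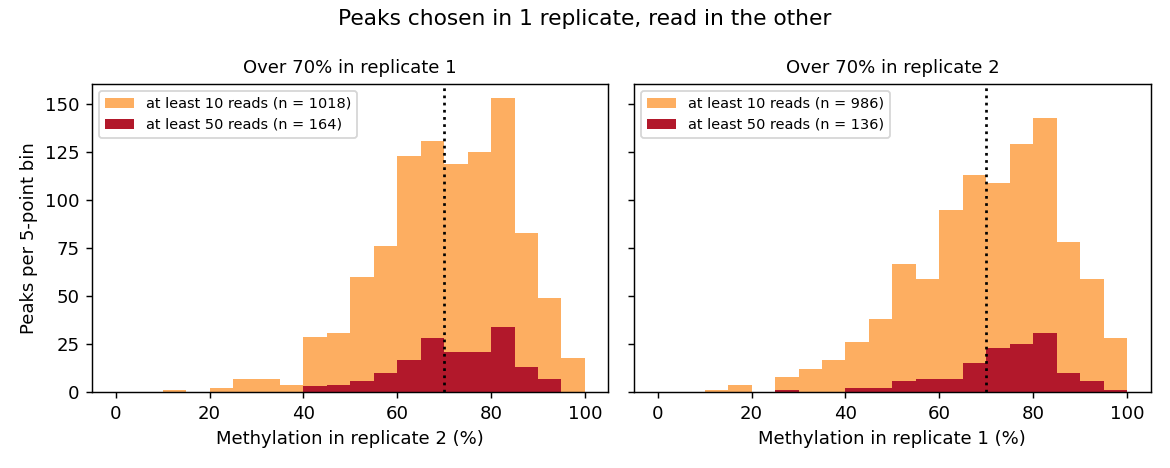
Methylation (percent, x axis) in the replicate not used for the choice, for peaks over 70% methylated in the other replicate, as peaks per 5-point bin (y axis); orange, at least 10 reads in each replicate; red, at least 50. Of 1018 peaks chosen in replicate 1, 52.8% lie to the right of the dotted line at 70%, and nearly all lie above 20%.

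The DNA beside mostly methylated sites, which the choice did not use, was methylated as well. At 500 to 2000 bp beyond the edges, leaving out CpGs in any peak, 73.0% and 79.5% of reads were methylated, a mean of 76.2% ± 4.56 (SD, n = 2). Around peaks under 20% the same measure was 31.1% and 41.3%. Mostly methylated sites were therefore higher by 41.9 and 38.2 points, a mean of 40.1 ± 2.61 (SD, n = 2), well beyond the replicate spread. Around peaks at 40% to 60% it was 72.1% and 76.7%, so the mostly methylated sites were higher by only 1.86 ± 1.34 points (SD, n = 2), with both replicates on the same side. Pooled reads weigh CpGs with high coverage most. The median over the 322 sites with at least 10 flank reads in each replicate was 87.0% and 87.5%, against 62.5% and 70.5% around peaks under 20%.

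With distance, methylation stayed high beside mostly methylated sites and climbed from a low level beside peaks under 20%. Mostly methylated sites went from 81.0% ± 0.277 in the peak to 81.4% ± 1.38 within 100 bp of the edge and 85.9% ± 1.66 at 100 to 250 bp (SD, n = 2). They then declined to 69.9% ± 7.02 at 5000 to 10000 bp. Peaks under 20% went from 1.55% ± 0.599 inside to 7.23% ± 0.384 within 100 bp and 58.9% ± 7.39 at 5000 to 10000 bp. These values pool reads, and far from the edges medians over peaks were closer. At 2000 to 10000 bp the medians were 82.0% and 85.9% for mostly methylated sites, and 78.9% and 83.8% for peaks under 20%. The gap was then 2.61 ± 0.731 points, against 12.8 ± 1.16 with reads pooled (SD, n = 2). Peaks at 40% to 60% stepped from 49.2% inside to 72.5% ± 0.479 within 100 bp of the edge. At that distance mostly methylated sites were above them in both replicates (80.5% against 72.2%, and 82.4% against 72.8%), by more than the spread between replicates. Fragments that cross a peak edge can cover CpGs on both sides, so this gap may carry over from the rule. At 500 to 2000 bp beyond the edges the same sets differed by only 1.86 ± 1.34 points (SD, n = 2).

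**Figure D4:**
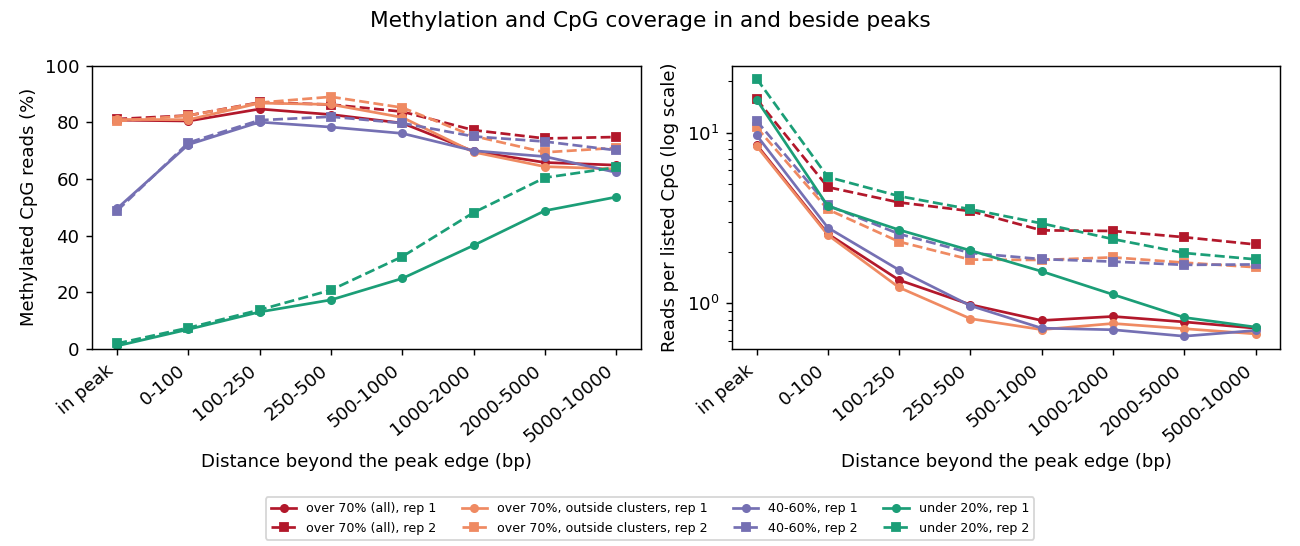
Methylated CpG reads (percent, left) and reads per listed CpG (log scale, right) inside peaks and by distance beyond their edges (bp), pooled over peaks; circles and full lines are replicate 1, squares and dashed lines replicate 2, colours are peak classes. Mostly methylated sites (all) stay between 64.9% and 87.0% throughout, while peaks under 20% climb from 1.13% and 1.98%; coverage falls steeply at the edge in every class.

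Single sites departed from this pattern. Large gaps are described among sites with at least 50 reads in each replicate. With fewer reads in the peak the gap could be larger. A peak near EOGT read 85.0% and 87.5% on 20 and 24 reads, with flanks at 6.68% and 12.2%. A peak within ANO8, a gene of the anoctamin membrane proteins, on chromosome 19 (17332501 to 17333005, signal 2235) was at 79.8% and 71.7% on 84 and 230 reads, while its flanks were at 31.8% and 27.3% on 340 and 748 reads. It was thus a methylated peak in a mostly unmethylated surround, by 46.2 points on average. TARS3, a threonyl-tRNA synthetase gene, held a peak at 87.3% and 81.8% with flanks at 48.6% and 66.7%. Peaks near RHOU and MINDY2 read 71.9% and 77.1% as means of the replicates, with flanks of 46.2% and 47.1% near RHOU and 62.6% and 55.8% near MINDY2. With each covered CpG weighted equally the peak near RHOU read 62.0%, below the limit of 70%. The site near RHOU had 0 reads in both replicates over the CpGs 2000 to 10000 bp away, so no coverage ratio can be given for it.

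CpG coverage in most of these sites was above that of their surround. Peaks are called where fragments pile up, so an excess is largely built into the peak list and is given as a description. The coverage excess is the reads per listed CpG in a peak over those 2000 to 10000 bp beyond its edges. Its median over sites was 16.5-fold in replicate 1 and 7.35-fold in replicate 2, against 21.7-fold and 9.92-fold in other tested peaks and 23.2-fold and 10.9-fold in peaks under 20%. Peaks at 40% to 60% were closer to the sites, at 18.4-fold and 7.80-fold. Against this flank mostly methylated sites were lower than each of these sets in both replicates, while the replicates themselves differed more than the sets. The order against other tested peaks depended on the flank. Against CpGs 500 to 2000 bp away the medians were 17.4-fold and 6.86-fold, compared with 16.8-fold and 8.29-fold in other tested peaks, so the sites were higher in replicate 1 and lower in replicate 2. Per covered instead of per listed CpG, the mean of the replicate medians was 4.57-fold instead of 11.9-fold. An excess of at least 2 in both replicates was found at 530 of 537 sites (98.7%), against 99.6% of all tested peaks. Sites with 0 flank reads, 2 in replicate 1 and 1 in replicate 2, count as above the limit there, the site near RHOU among them. An excess of at least 5 was found at 403 (75%), against 86.1% of all tested peaks and 79.2% of peaks at 40% to 60%. A peak needs 10 reads in each replicate to be tested, so a CpG-poor peak with little excess is less likely to be among the tested peaks.

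At like signal the sets were close in the lowest 3 quintiles. In the weakest quintile of signal, which held 253 of the sites, the medians were 15.2-fold and 6.60-fold, against 14.2-fold and 6.82-fold in other tested peaks. In quintile 2 (174 sites) they were 16.0-fold and 7.93-fold against 16.8-fold and 7.96-fold, and in quintile 3 (73 sites) 23-fold and 8.50-fold against 20.4-fold and 9.35-fold. In quintiles 1 and 3 the replicates disagreed on which set was higher. In quintile 4 (26 sites) the medians were 17.8-fold and 9.55-fold, against 26.1-fold and 11.8-fold. The 22 of these outside the clusters described below had 21.2-fold and 10.9-fold. In the strongest quintile (11 sites) they were 7.47-fold and 6.79-fold, against 39.8-fold and 17.9-fold, but 5 of the 11 lay in the chromosome 16 cluster near SHCBP1 described below, and the other 6 had medians of 29.5-fold and 10.4-fold.

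**Figure D5:**
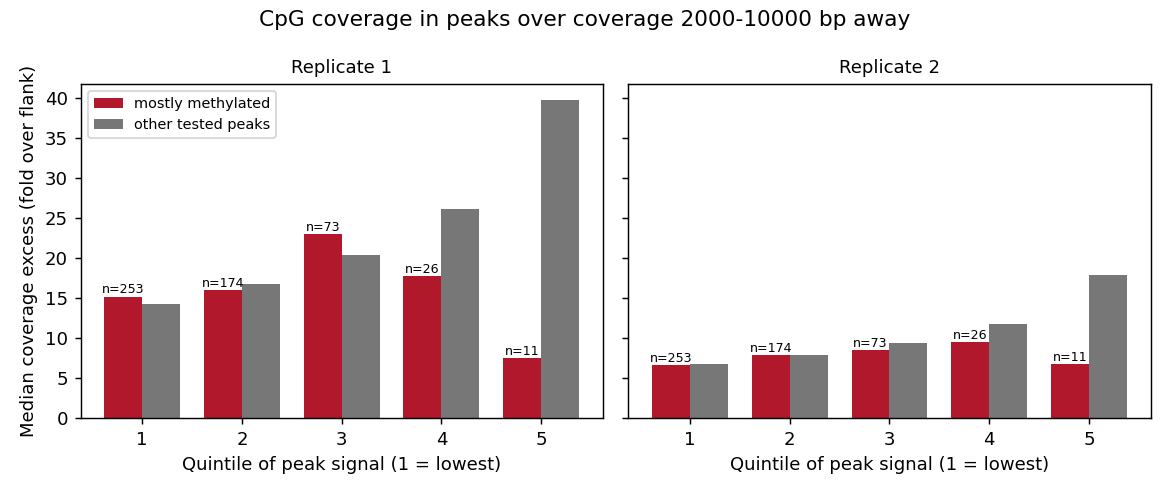
Median coverage excess (fold over CpGs 2000 to 10000 bp away, y axis) by quintile of peak signal (x axis, 1 = weakest) in replicates 1 and 2; red, mostly methylated sites with their number; grey, other tested peaks. The bars are close in the lowest 3 quintiles, and the red bar is lower in quintiles 4 and 5.

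Coverage excess also varied widely among single sites. A peak on chromosome 17 (26619410 to 26620179), 674500 bp from WSB1, had 196-fold and 107-fold excess over only 18 and 85 flank reads. The BBS9 peak had 30.9-fold and 38.9-fold excess. Among sites with at least 50 reads, the low end held ENKD1 with 2.72-fold and 2.18-fold, RAC3 with 3.38-fold and 2.82-fold, and a peak 154 bp from TENT5B with 3.56-fold and 2.90-fold. A peak of the SHCBP1 cluster (46391161 to 46391451) had 2.98-fold and 1.73-fold. Of all 537 sites, 7 were under 2-fold in at least 1 replicate.

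Among the strongest mostly methylated sites was one within SLC19A1, the reduced folate carrier gene, on chromosome 21 (45527107 to 45527874, signal 3323), with 76.7% and 71.6% on 554 and 648 reads and 43.5-fold and 17.2-fold excess. CAMSAP3, a gene of a protein of microtubule minus ends, held one at 78.9% and 73.7% on 76 and 152 reads. Both had flanks that were at least 70% methylated in each replicate. Among the sites with the most CpGs were a peak within LINC01194 on chromosome 5 (33 CpGs, 76.8% and 80.2%) and one within NOP14, a ribosome biogenesis gene, on chromosome 4 (25 CpGs, 83.5% and 89.9% on 230 and 483 reads).

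A few sites lay in tight clusters. Grouping sites at most 20000 bp apart gave 3 clusters of at least 3, with 16 sites in all, a grouping made after the values were seen. On chromosome 16 (46386819 to 46401676), 177107 to 190734 bp from SHCBP1, all 8 tested peaks were mostly methylated, at 73.4% to 93.5% in replicate 1 and 78.2% to 86.7% in replicate 2. A second cluster on chromosome 16 (34573931 to 34592967) had 4 of 7 tested peaks, and one on chromosome 5 (49645942 to 49666289) had 4 of 5. Where the clusters lie relative to centromeres was not measured. Overlap of these sites with repeated DNA was not tested. Together the 16 sites carried 11.1% of the reads of all mostly methylated sites in replicate 1 and 38.2% in replicate 2.

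The libraries differed at these clusters more than elsewhere. Replicate 2 had 6.52 times the CpG reads of replicate 1 at the sites near SHCBP1, 6.58 times in the other chromosome 16 cluster and 4.68 times in that on chromosome 5, while its autosomal total was 1.81 times that of replicate 1 and the median mostly methylated site had 1 time. More than 3 times as many reads in replicate 2 were found at 34 sites (6.33%), 15 of them in the clusters, against 2.14% of all tested peaks. Median coverage excess in the clusters was 7.21-fold and 7.49-fold, against 16.9-fold and 7.34-fold outside. Without the clusters 521 sites were left, and their median signal (327), width (226 bp), CpG density (1.5 per 100 bp) and distal share (94.2%) stayed close to those of all 537. Flanks were then 73.4% and 78.5% methylated, and 23.6% of sites lay over 100000 bp from a coding gene. The part of this read imbalance in the results was not tested.

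Neighbouring peaks were compared last. A tested peak lay within 10000 bp of 176 sites (32.8%), against 45.1% of all tested peaks and 34.9% of peaks at 40% to 60%. The nearest such neighbour was itself mostly methylated for 23 of the 176 (13.1%), against 0.899% over all tested peaks, and for 12 of 161 (7.45%) outside the clusters. Both sites of a pair can count here, so these are not independent cases. Some pairs lie close together, as within DIP2C on chromosome 10 (436406 to 436760 and 436975 to 437468). Under 20% were 100 of the 176 neighbours (56.8%), against 78.4% over all tested peaks and 64.6% for peaks at 40% to 60%. Outside the clusters this share was 62.1%. By chromosome, between 0.674% of tested peaks (chromosome 19) and 2.02% (chromosome 13) were mostly methylated. Chromosome 16 was at 1.76%, and at 0.948% without its clusters.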

How the data were processed

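Build hg38 (GRCh38), with Genrich and Trim Galore, is named per the submitters' processing notes. Mapper, methylation caller and versions: not given in the sources used here. The authors deposited, per replicate, a methylation fraction and a count of covering reads for each CpG, and 1 peak list with a peak signal, a score capped at 1000, and the −log10 of the q-value. Methylated reads were recovered as fraction times reads (whole within 0.001 for 99.9998% and 99.9986% of covered CpGs). Positions in the tables count from 0, checked against CpGs in RefSeq promoter sequences; printed coordinates count from 1.

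Region methylation is methylated over all CpG reads, per replicate. A read covering several CpGs counts at each, and no molecular identifiers are named, so Wilson intervals cover counting error only. Of 46884 autosomal peaks, 2309 held no CpG and 40703 had at least 10 reads in each replicate. Gene ends and starts are from RefSeq (GRCh38.p14); no starts were used on 1 autosome, whose sites are counted but not named. Flanks leave out CpGs in any peak; coverage excess needed at least 10 flank CpGs. The members, lists and comparisons were chosen with earlier results of these data known. Sites were named by signal, gene start, CpG number, coverage excess, flank difference and nearness to the limit, mostly with at least 50 reads. RefSeq windows shown, clusters and the 9 coding starts were chosen after values were seen. Some sites that these rules name are not reported here. No test across peaks was run. Functions were checked on simulated data. Alternatives covered read minimum, limit, weighting, significance, summit core, flank distance and each replicate left out. Python 3.11.15, NumPy 2.4.6, pandas 2.3.3 and SciPy 1.17.1 were used.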

Additional observations from a re-analysis of the deposited data

How the results depend on the processing

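The number of mostly methylated sites follows the rule closely. It was 299 with at least 20 reads, 96 with at least 50, 854 with a limit of 65%, 159 with 80%, 110 among peaks above the median significance, and 1102 to 1162 with either replicate left out of the rule; 5 reads, equal weight per CpG, CpGs within 100 bp of the summit and leaving out CpGs marked CpGx kept it between 490 and 737. Read in the other replicate, 64.6% passed again with at least 50 reads, against 53.6% (means of both directions). With at least 50 reads the median signal was 436, width 282 bp, density 3.47 and the distal share 87.5%; with a limit of 80% the first 3 were 335, 226 bp and 1.49. Without the clusters the width was 226 bp and the density 1.5. With either replicate left out they were 322 to 327 for signal, 223 to 224 bp and 1.34 to 1.36, the distal share was 95.3% to 95.5%, flank methylation 71.4% to 80.5%, coverage excess 7.40-fold to 17.6-fold and the share with an excess of at least 2 99.1% to 99.7%. The distal share was 96.6% at 500 bp and 84.9% at 5000 bp. Flank methylation was 69.9% at 2000 to 10000 bp, 87.2% as a median over peaks and 65.5% with CpGs of other peaks kept. Coverage excess was 4.57-fold per covered CpG. The share with an excess of at least 2 was 96.7% against flanks at 500 to 2000 bp, and 75% had at least 5. The cause was not tested, beyond fewer peaks passing stricter limits. Of 29 named sites, 21 stayed within their replicate SD with CpGs weighted equally and 27 without CpGs marked CpGx. Equal weighting took the peaks near RHOU and TENT5B below the limit, to 62.0% and 68.7%. Leaving out the clusters, leaving out the CpGs marked CpGx, and equal weighting of named sites were alternatives chosen after seeing the data. No paired analysis was possible because there is 1 group. Alternatives that leave out a replicate could not be run for readings in the other replicate. Reads limit most single sites: the median site has 27 and 28.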
